A study of Sparus aurata with 8 samples.

Results

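Aquaporins are membrane channels that let water, and in some members glycerol or hydrogen peroxide, pass along osmotic or concentration gradients. The family is divided into water-selective channels of the aquaporin-1 and aquaporin-4 type, aquaglyceroporins such as aquaporin-3, aquaporin-7 and aquaporin-10 that also conduct glycerol, and the aquaporin-8 type, which passes hydrogen peroxide as well as water. In marine teleosts such as the gilthead seabream (*Sparus aurata*), spermatozoa are immotile in the testis and become motile when hyperosmotic seawater draws water out of the cell, and aquaporins have been described on the seabream flagellum, head and mitochondrion.

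RNA-seq libraries were compared from 4 pools of haploid germ cells (HGC, type II spermatocytes and spermatids sorted from the testis by their DNA stain) and 4 pools of ejaculated spermatozoa (SPZ_EJ, obtained by gentle abdominal pressure). All fish were adult males in the natural breeding season, without treatment or genetic change, and each pool held 3 males. The number of males given for the RNA of both groups is that of 4 such pools, so the groups may share males, but no source used here says which pools would correspond. HGC libraries held 19865716 to 30645027 counts and SPZ_EJ libraries 15395220 to 17886675.

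The aquaporin family was taken as every protein-coding feature of the count table whose product name begins with Aquaporin, which gave 16 of 31501 protein-coding features and of 197399 features in all. The product names were Aquaporin-1 (4 features), Aquaporin-3, Aquaporin-4 and Aquaporin-8 (3 features each), and Aquaporin-7, Aquaporin-10 and Aquaporin FA-CHIP (1 feature each). FA-CHIP is the name first given to a frog water channel of the aquaporin-1 type. The 3 features Saurata1B034269, Saurata1B022758 and Saurata1B018180 could be tied to the symbols *aqp7*, *aqp3a* and *aqp1ab2* of the study's gene table. The tie was made through the DESeq2 statistics of each feature and serves as identity only. RefSeq gives the first 2 of these transcripts the same symbols in another assembly. The 2 Aquaporin-1 features Saurata001000 and Saurata001001 carry identifiers of another form, shared by 202 features. The authors added 202 de novo assembled transcripts to the reference, the same number, although the labels do not name them. Reads of features with similar sequence can be split or shared by the counting, and no sequences were compared here. The Aquaporin-1 features are therefore uncertain one against another.

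Of the 16 aquaporin features, 10 had counts in HGC and 15 in SPZ_EJ. The 1 feature at 0 in every library was the Aquaporin-3 feature Saurata1B051548. In HGC, Aquaporin FA-CHIP held 3360 to 5579 counts per pool, and the other 15 features held 0 to 36. Only 4 features passed the expression filter, which asks for a minimum level in as many libraries as a group holds. A feature abundant in 1 group only passes through that group and is then likely to differ, so the following counts describe those 4 and say nothing about the other 12. A feature was called when edgeR's quasi-likelihood test gave it an adjusted p under 0.01 together with more than 1 log2 unit of change. Higher in SPZ_EJ were Aquaporin-7 and 1 Aquaporin-3 feature, lower was Aquaporin FA-CHIP, and the other Aquaporin-3 feature was not called. Over all 21375 features tested, 32.3% were called higher and 24.7% lower, and the median log2 fold change was 0.45. Levels below are CPM (counts scaled to library size) after TMM scaling, are not corrected for transcript length, and are compared between pools of 1 feature only. In bulk RNA, fewer cells of a type and less RNA per cell cannot be told apart. RNA integrity also differed with the group, since the authors found it high in HGC and low in SPZ_EJ. Only the HGC were digested out of tissue, stained and sorted. The part of RNA integrity and handling in the differences between groups was not tested.

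Aquaporin FA-CHIP fell from haploid germ cells to ejaculated spermatozoa. HGC pools 1 to 4 held 5510, 4852, 5579 and 3360 counts, or 393.6, 280.8, 231.7 and 195.3 CPM. SPZ_EJ pools 1 to 4 held 104, 227, 245 and 163 counts, or 3.62, 14.8, 13.7 and 7.45 CPM. Every SPZ_EJ pool lay below every HGC pool, as did 29.8% of all features tested. The level fell from 275 ± 86.2 to 9.87 ± 5.27 CPM (mean ± SD, n = 4 pools each), a ratio of 27.9 between the means. Fitted over all features with edgeR's quasi-likelihood test, the log2 fold change was -4.81 (SE 0.49) at an adjusted p = 1.12e-05. The transcript was still detected in all SPZ_EJ pools, and these spread 4.07-fold between the lowest and the highest.

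The fall of Aquaporin FA-CHIP ran beside that of transcripts of meiosis and flagellum building. In a list of 31 spermatid and meiotic features (axonemal dyneins, cilia- and flagella-associated and spermatogenesis-associated proteins, synaptonemal complex 1), 22 of 28 tested were called lower and 0 higher, with a median log2 fold change of -4.02. Of all features tested, 24.7% were called lower. The marker lists used here and below were chosen with earlier results of these data known. The spermatid and meiotic list summed to 8681 to 13830 CPM in HGC and to 279.6, 626.6, 706.4 and 409.8 CPM in SPZ_EJ pools 1 to 4. The SPZ_EJ pool lowest in CPM for the spermatid and meiotic list, pool 1, was also the lowest for Aquaporin FA-CHIP, and pools 2 and 3 were the highest for both. The TMM factors of SPZ_EJ pools 1 to 4 were 1.64, 0.906, 1.15 and 1.55. Both orders use these same factors, so their likeness is not independent of the scaling. Red blood cells of vertebrates also carry aquaporin-1, and a list of 10 erythrocyte features (globins, band 3, erythroid 5-aminolevulinate synthase) summed to 167.9, 23.2, 51.5 and 681.8 CPM in HGC pools 1 to 4 and to 9.55 to 26.5 CPM in SPZ_EJ. Of these, 3 of 4 tested were called lower and 1 was at 0 throughout. The HGC gate took haploid cells by DNA stain and size, whereas red cells are diploid, and transcripts of this list were still counted in HGC. HGC pool 4, the highest for this list, was the lowest HGC pool for Aquaporin FA-CHIP. HGC pool 1, the next highest for this list, was the highest for Aquaporin FA-CHIP. The part of these other cell types in the Aquaporin FA-CHIP counts was not tested. A list of 8 testis somatic features (steroidogenic enzymes, receptor of follicle-stimulating hormone) summed to 12.4 to 23.3 CPM in HGC and 7.47 to 14.6 CPM in SPZ_EJ, with 1 of 3 tested called lower.

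**Figure D1:**
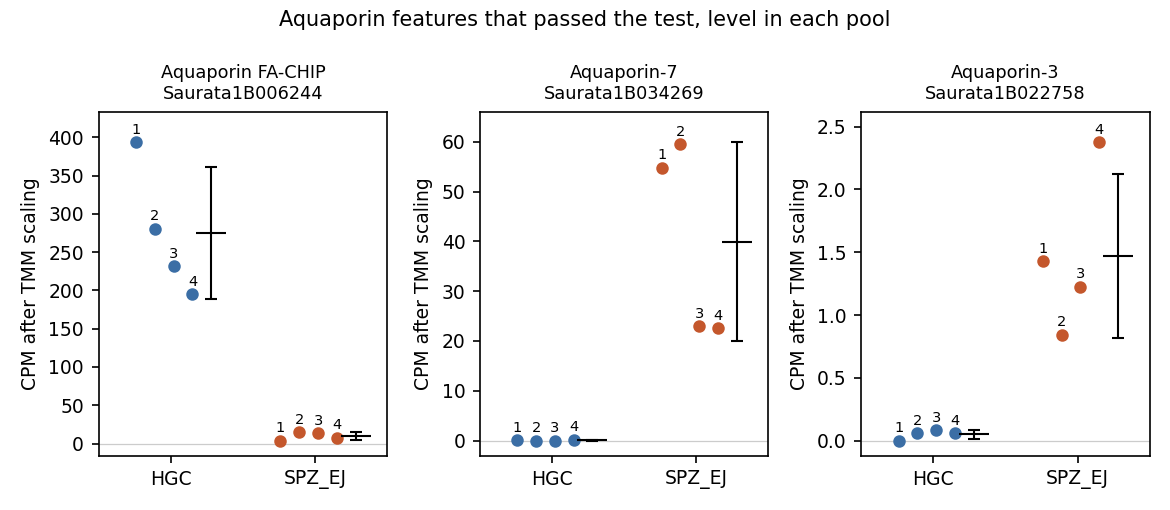
Level in CPM after TMM scaling of the 3 aquaporin features that were called, in each HGC and SPZ_EJ pool. Points are pools with their number, and the horizontal line and bar beside them are the mean ± SD of 4 pools. Aquaporin FA-CHIP lay between 195.3 and 393.6 CPM in HGC and at most at 14.8 CPM in SPZ_EJ, whereas Aquaporin-7 reached 22.6 to 59.5 CPM in SPZ_EJ.

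Aquaporin-7, a channel for water and glycerol, showed the opposite pattern. HGC pools 1 to 4 held 1, 0, 0 and 3 counts, and SPZ_EJ pools 1 to 4 held 1575, 916, 411 and 494. In CPM the SPZ_EJ pools stood at 54.8, 59.5, 22.9 and 22.6, against at most 0.174 in HGC. No HGC pool reached any SPZ_EJ pool, a separation in this direction that 35.4% of all features tested also had. The level rose from 0.0615 ± 0.0825 to 39.96 ± 19.96 CPM, with a log2 fold change of 9.31 (SE 0.82, adjusted p = 4.28e-06, edgeR's quasi-likelihood test). As the HGC level rests on 4 counts, the ratio of pooled rates was 734 with a 95% counting interval of 286.4 to 2695, which covers counting error only.

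Pools 1 and 2 of SPZ_EJ held more *aqp7* than pools 3 and 4. Leukocyte and duct epithelium transcripts moved in the same direction, although Aquaporin-7 was highest in pool 2 and both marker lists in pool 1. The genes of glycerol and volume handling listed below summed to 858.6, 692, 604.7 and 656.2 CPM in SPZ_EJ pools 1 to 4, with pool 2 close to pool 4. In a list of 18 leukocyte features (coronin-1A, plastin-2, receptors of macrophage colony-stimulating factor, Rac2 and class II histocompatibility antigens), 14 of 15 tested were called higher in SPZ_EJ and 0 lower, with a median log2 fold change of 6.70, and 1 feature was at 0 throughout. Of all features tested, 32.3% were called higher, and this list was chosen with earlier results of these data known. The list summed to 527 to 675 CPM in HGC and to 8106, 5916, 4739 and 3462 CPM in SPZ_EJ pools 1 to 4. Most of the HGC sum came from the class II gamma chain feature Saurata1B047082 (541.5 ± 65.7 CPM). In SPZ_EJ this feature stood at 1187 ± 346 CPM and the gamma chain feature Saurata1B048884 at 2467 ± 1124 CPM. The defining genes coronin-1A and plastin-2 rose by 4.26 (SE 0.33, adjusted p = 2.11e-06) and 6.41 (SE 0.65, adjusted p = 1.04e-05) on the log2 scale by the same test. The sum of a list of 23 duct epithelium features had the same order of SPZ_EJ pools, with 1357, 1030, 855.5 and 604 CPM in pools 1 to 4 against 52.4 to 114 CPM in HGC. This sum rests largely on keratins, and the members of the list differed in pool order, as given below. The paper states that *aqp7* was described earlier in seabream spermatozoa. From RNA profiles and microscopy, the authors judged the ejaculates to be almost devoid of non-sperm cells. The part of leukocyte or epithelial RNA in the Aquaporin-7 counts was not tested.

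The Aquaporin-3 feature Saurata1B022758, tied to *aqp3a*, rose at low counts. It held 0, 1, 2 and 1 counts in HGC pools 1 to 4 and 41, 13, 22 and 52 in SPZ_EJ pools 1 to 4. The groups did not overlap, with at most 0.0831 CPM in HGC and 0.845 to 2.38 CPM in SPZ_EJ. Of all features tested, 35.4% were separated in this direction. The log2 fold change was 4.63 (SE 0.76, adjusted p = 0.000266, edgeR's quasi-likelihood test), and the ratio of pooled rates was 27.7 with a 95% counting interval of 10.6 to 103.1. The call was lost without the expression filter (adjusted p = 0.0151). Aquaporin-3 is known from epithelia, and of the duct epithelium list (keratins 8 and 18, claudins, cadherin-1) 4 of 6 tested were called higher and 0 lower, with 1 feature at 0 throughout. The share called higher over all features tested was 32.3%. SPZ_EJ pool 4 was the highest for this Aquaporin-3 feature and the lowest for the list's sum, which rests largely on keratins. The list's members differed in pool order. Keratin 18 feature Saurata1B045583 held 14862, 10683, 8946 and 7487 counts in SPZ_EJ pools 1 to 4, and cadherin-1 held 847, 140, 358 and 1037. The part of duct epithelium RNA in the counts of this Aquaporin-3 feature was not tested.

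A further set of aquaporins had counts almost wholly in SPZ_EJ pools 3 and 4. The Aquaporin-1 feature Saurata1B018180, tied to *aqp1ab2*, held 2, 0, 470 and 1430 counts in SPZ_EJ pools 1 to 4 and 1, 0, 2 and 1 in HGC. Pools 3 and 4 stood at 26.2 and 65.4 CPM, while pools 1 and 2 stood at 0.0696 and 0 CPM, inside the HGC range of 0 to 0.0831. With 2 SPZ_EJ pools above every HGC pool the groups overlapped, and an exact permutation test over the 8 pools on log2(CPM + 1), two-sided, gave p = 0.343, where 0.0286 is the smallest that 4 against 4 pools can give. The feature did not pass the expression filter. The default test of DESeq2, which filters differently, called it higher (log2 fold change 8.61, adjusted p = 0.000475), as did edgeR's quasi-likelihood test without the filter (adjusted p = 6.04e-18). Paralogs of aqp1ab type are known in marine teleosts from the oocyte, where they take part in the water uptake of the maturing egg.

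The Aquaporin-3 feature Saurata1B038272 had the same division of SPZ_EJ pools but was also counted in every HGC pool. HGC pools 1 to 4 held 11, 22, 23 and 36 counts, or 0.786 to 2.09 CPM. SPZ_EJ pools 1 and 2 held 0 and 1 count and lay below every HGC pool, and pools 3 and 4 held 235 and 687 counts (13.1 and 31.4 CPM) and lay above every HGC pool. The log2 fold change over all pools was 3.12 (SE 1.48, adjusted p = 0.0792, edgeR's quasi-likelihood test), not called. Without SPZ_EJ pools 3 and 4, a setting chosen after seeing the data, it was called lower (log2 fold change -5.26, adjusted p = 0.00758), and without the expression filter it was called higher (log2 fold change 2.46, adjusted p = 0.00426). The filter changed the call but not the direction, and the direction turned only without SPZ_EJ pools 3 and 4.

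The remaining Aquaporin-1 features held fewer counts, most of them in the same pools. Saurata001000 had 0 counts in HGC and 0, 0, 20 and 53 in SPZ_EJ pools 1 to 4, at least 21.0-fold higher against a floor of 3 counts over the HGC group (0.0413 CPM), and overlapped HGC in 2 pools (exact permutation p = 0.429, two-sided). Saurata001001 had 56 counts in SPZ_EJ pool 4 and 0 in all other libraries. Saurata1B031765 had 1 HGC count and 8, 0, 8 and 38 counts in SPZ_EJ pools 1 to 4, a ratio of 46.7 with a 95% counting interval of 8.03 to 1878 (exact permutation p = 0.143, two-sided).

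**Figure D2:**
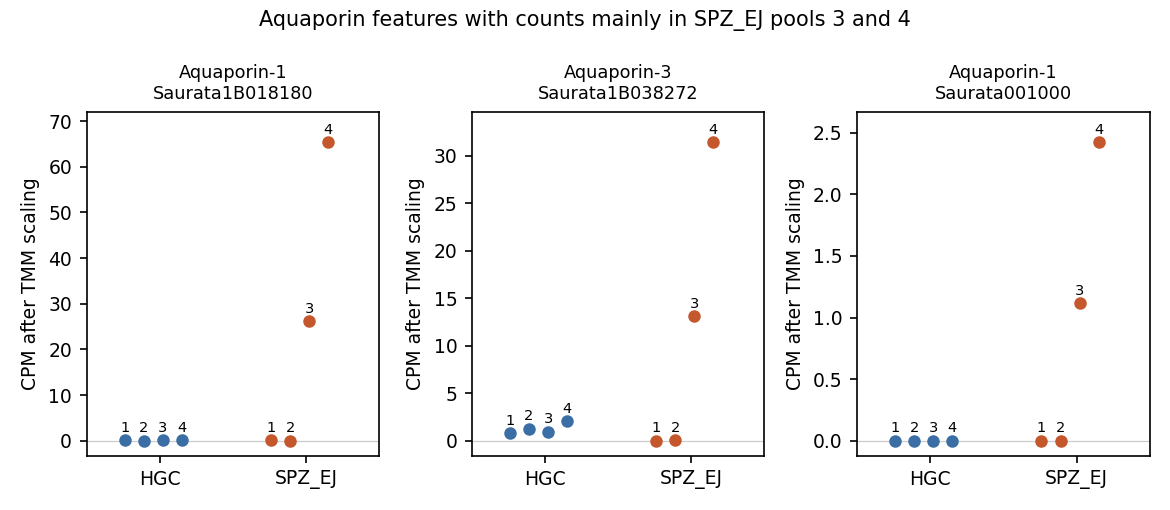
Level in CPM after TMM scaling of 3 aquaporin features, in each HGC and SPZ_EJ pool, with the pool number beside each point. The Aquaporin-1 feature Saurata1B018180 reached 26.2 and 65.4 CPM in SPZ_EJ pools 3 and 4, and pools 1 and 2 lay at or near 0 in all 3 features.

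Some transcripts known from the oocyte also divided SPZ_EJ pools 1 and 2 from pools 3 and 4, though not all to the same degree. The list held growth differentiation factor 9 and factor in the germline alpha, oocyte factors of vertebrates, and a feature named oocyte zinc finger 19. These 3 summed to 22.0 to 33.2 CPM in HGC and to 13.8, 14.4, 40.4 and 70.3 CPM in SPZ_EJ pools 1 to 4. To these were added, after the table was seen, the features tied to the study's symbols *zp3*, an egg coat gene, and *h2a.2.2*, a histone. The *zp3* name is uncertain, since the table calls this feature polyadenylate-binding 4 and RefSeq has the symbol *zpcx* for the transcript. The 5 features together summed to 22.1 to 33.2 CPM in HGC and to 15.5, 14.9, 311.8 and 654.6 CPM in SPZ_EJ pools 1 to 4, so most of the larger sum came from the added pair, and no test of the list was made. The *zp3* feature alone held 42, 4, 3404 and 9248 counts in SPZ_EJ pools 1 to 4. Factor in the germline alpha held 5, 15, 191 and 604 counts in SPZ_EJ pools 1 to 4, and growth differentiation factor 9 held 232, 144, 466 and 767. Oocyte zinc finger 19 did not share this division, with 160, 62, 67 and 166 counts in SPZ_EJ pools 1 to 4. None of the 5 was at 0 in all libraries. In CPM, pool 4 exceeded pool 3 by a ratio of 2.49 (95% counting interval 2.24 to 2.77) for the Aquaporin-1 feature Saurata1B018180 and 2.40 (2.06 to 2.79) for the Aquaporin-3 feature Saurata1B038272. For factor in the germline alpha the ratio was 2.59 (2.198 to 3.06), for *zp3* 2.23 (2.14 to 2.32) and for growth differentiation factor 9 1.35 (1.20 to 1.52). The intervals of both aquaporins overlap those of factor in the germline alpha and *zp3* and lie above that of growth differentiation factor 9. For *h2a.2.2* the ratio was 1.98 (1.87 to 2.11), below the interval of the Aquaporin-1 feature, and for oocyte zinc finger 19 it was 2.03 (1.52 to 2.74), which overlaps both. The list's members thus differed in this ratio among themselves. Because *zp3* and *h2a.2.2* were added after the table was seen, their ratios are no independent comparison. How many other features have such a ratio was not counted. The part of oocyte-type RNA in these aquaporin counts was not tested.

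**Figure D3:**
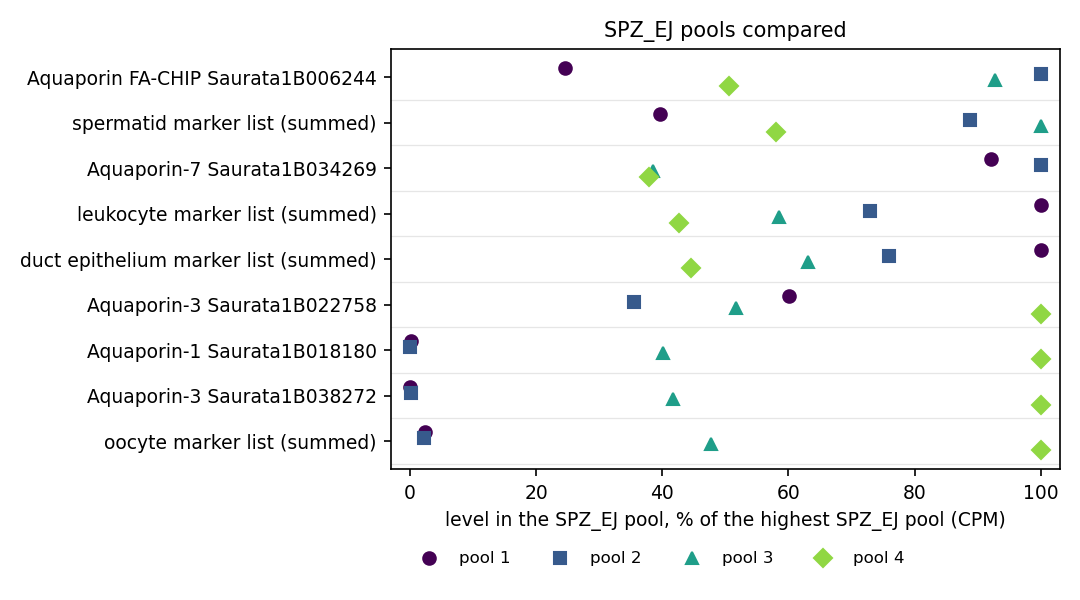
Level of 5 aquaporin features and of 4 summed marker lists in each SPZ_EJ pool, as a percentage of the highest SPZ_EJ pool for that row (CPM after TMM scaling). The pool order within a row can depend on the TMM factors, and the duct epithelium sum rests largely on keratins. Aquaporin FA-CHIP and the spermatid list were highest in pools 2 and 3, Aquaporin-7 and the leukocyte and duct epithelium lists in pools 1 and 2, and Aquaporin-1 Saurata1B018180, Aquaporin-3 Saurata1B038272 and the oocyte list of 5 features in pool 4, followed by pool 3. Of these 5 features, 2 were added after the values were seen and carry most of the sum, so the likeness of this list is partly built in.

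The Aquaporin-8 features stayed near the limit of detection. An aquaporin-8 paralog is known from the mitochondrion of seabream spermatozoa. Saurata1B033210 had 0 counts in all HGC pools and 3, 15, 1 and 6 in SPZ_EJ pools 1 to 4. Every SPZ_EJ pool thus lay above every HGC pool (exact permutation p = 0.0286, two-sided, the smallest possible, not adjusted). With 0 counts in HGC, 1 count in each SPZ_EJ pool would give the same p. Neither the default test of DESeq2 (adjusted p = 0.0306) nor edgeR's quasi-likelihood test without the filter (adjusted p = 0.127) called Saurata1B033210. The pooled level of Saurata1B033210 was at least 7.204-fold above the floor of 3 counts in HGC, and it did not pass the expression filter. Among the features that did pass, 35.4% had this separation, a share that need not hold at counts this low. Saurata1B036388 held 1 count in HGC and 0, 2, 0 and 11 in SPZ_EJ, with overlapping groups (exact permutation p = 0.429, two-sided). Saurata1B026892 held 2 counts in each group, and a difference was not detectable at this depth.

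Aquaporin-4, a water channel best known from glial cells, and Aquaporin-10, an aquaglyceroporin, had few counts. Saurata1B002475 held 1 count in HGC and 0, 10, 0 and 6 in SPZ_EJ pools 1 to 4, a ratio of 13.8 (95% counting interval 2.15 to 580) with overlapping groups (exact permutation p = 0.429, two-sided). Saurata1B003280 held 0, 2, 4 and 4 counts in HGC and 0, 3, 0 and 1 in SPZ_EJ (exact permutation p = 0.40, two-sided). The third Aquaporin-4 feature and Aquaporin-10 each held 1 count in 1 SPZ_EJ pool.

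No feature of the table has a product name of Aquaporin-9, Aquaporin-11 or Aquaporin-12, although RefSeq lists 11 gene symbols beginning with aqp in another assembly of the species. A water channel can therefore sit under another name. The feature Saurata1B013426, an uncharacterized protein tied to *aqp11a*, held 4, 3, 8 and 6 counts in HGC pools 1 to 4 and 199, 11, 34 and 177 in SPZ_EJ pools 1 to 4 (log2 fold change 3.92, SE 0.81, adjusted p = 0.00127, edgeR's quasi-likelihood test).

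For each called aquaporin, named protein-coding features with the closest profiles were found by the Euclidean distance of mean-centred log2 CPM over the 8 pools, among 9915 features. Among the closest to Aquaporin FA-CHIP was transmembrane protease serine 11D (distance 0.76), against a median distance of 6.98. Closest to Aquaporin-7 were leukotriene B4 receptor 1 (1.02), a chemoattractant receptor known from mammalian leukocytes, and macrophage-capping (1.11), an actin-capping protein, against a median of 11.97. Closest to the Aquaporin-3 feature Saurata1B022758 were calmodulin-regulated spectrin-associated 3 (0.93), which binds microtubule ends, and dispanin subfamily A member 2b (0.94), against a median of 5.69. All of these distances include the difference between the groups.

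A list of genes that act beside aquaporins in glycerol handling, cell volume regulation and osmotic sensing held 40 features, of which 25 were tested. Of these, 7 were called higher, 5 lower and 13 not at all, shares close to the 32.3% higher and 24.7% lower of all features tested. Their median log2 fold change was -0.09, below the 0.45 of all features tested and above the -0.29 of the protein-coding ones. The next 3 examples were chosen after their values were seen. Both urea transporters were at 0 in every library, and both features of lens fiber major intrinsic protein, the lens aquaporin, held at most 5 counts in any library. Glycerol kinase, which phosphorylates the glycerol that aquaglyceroporins admit, was not called (2.79 ± 0.524 CPM in HGC and 3.21 ± 1.28 in SPZ_EJ, log2 fold change 0.21, adjusted p = 0.706, same test).

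Among the 6 listed features with the most counts, glycerol-3-phosphate dehydrogenase 1, which links glycolysis and glycerol-3-phosphate, stood at 6.92 ± 2.26 CPM in HGC and at 98.0 ± 39.7 CPM in SPZ_EJ. It was called higher, with a log2 change of 3.83 (SE 0.39) and an adjusted p = 1.12e-05 in edgeR's test. Its relative Saurata1B023686 was called lower, with 95.05 ± 4.72 CPM in the HGC pools against 34.6 ± 6.17 CPM after ejaculation (log2 change -1.46, SE 0.25, adjusted p = 0.000397 in edgeR's test), a call lost with scaling by library size only (adjusted p = 0.102). Voltage-dependent anion-selective channels 1 and 2, pores of the outer mitochondrial membrane, rose by 2.58 (SE 0.29, adjusted p = 1.78e-05) and 3.36 (SE 0.37, adjusted p = 1.64e-05) on the log2 scale in the features Saurata1B039443 and Saurata1B043268. Channel 2 has 4 features, which did not move together, since 2 were called higher, Saurata1B032515 was called lower (log2 change -2.05, SE 0.39, adjusted p = 0.000761, same test) and Saurata1B007962 was not called. Of the subunits of the volume-regulated anion channel, LRRC8A feature Saurata1B057033 rose by 1.59 (SE 0.37, adjusted p = 0.00271, same test) and LRRC8D feature Saurata1B000627 by 6.83 (SE 0.89, adjusted p = 5.56e-05, same test) on the log2 scale. The call of LRRC8A feature Saurata1B057033 was lost without any 1 of the HGC pools or SPZ_EJ pool 1 (adjusted p = 0.0111 to 0.0172) and without the filter (adjusted p = 0.143). The other LRRC8A feature, Saurata1B048067, was not called (log2 change 0.33, SE 0.38, adjusted p = 0.45, same test). LRRC8D has 4 features, of which 1 rose and 1 fell, and reads shared between them cannot be told apart.

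**Figure D4:**
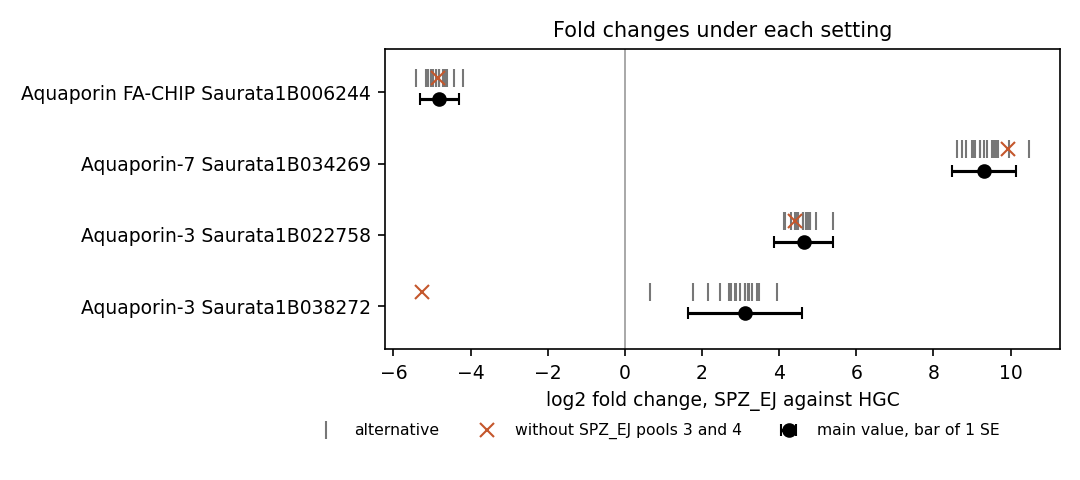
Log2 fold change of SPZ_EJ against HGC for the 4 aquaporin features tested. Black points are the main value with a bar of 1 SE, grey ticks the alternatives of scaling, filter, test and left-out pools, and the cross the value without SPZ_EJ pools 3 and 4. Aquaporin FA-CHIP stayed between -5.42 and -4.19 and Aquaporin-7 between 8.62 and 10.48, while Aquaporin-3 Saurata1B038272 ranged from -5.26 to 3.94.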

How the data were processed

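Complementary DNA was primed with oligo-dT and amplified, and the libraries kept no strand. The authors aligned reads with STAR 2.5.3a to their improved seabream reference and estimated counts per gene with RSEM 1.3.0. The deposited expected counts are whole numbers without normalization and were the only measured values used. Groups and replicate numbers came from the labels, and 0 columns belonged to no sample of the series.

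All features were fitted together with edgeR 4.0.16 (filterByExpr by group, TMM scaling, quasi-likelihood test, Benjamini-Hochberg adjustment over 21375 features). Each SE was obtained from the log2 change and its F statistic as |change| over root F. Alternatives were DESeq2 1.42.0, limma 3.58.1 (voom with sample quality weights), other scalings, filters and thresholds, omission of the 20 most abundant features and of each library, a replicate block, and thinning to 15395220 counts. Fits ran in R 4.3.3, summaries in Python 3.11.15 with pandas 2.3.3, scipy 1.17.1 and numpy 2.4.6, and plots in matplotlib 3.10.9. The fit was tested on simulated data. Every aquaporin feature was named by rule, as were the 6 most counted listed partners and the 2 closest profiles of each called member. One of these profiles is not reported here. Features were tied to symbols of the study's supplementary gene table where exactly 1 feature had DESeq2 statistics within 0.0005 in log2 fold change and 0.5% in adjusted p of the listed ones. That table was used for identity only. The members and lists were chosen with earlier results of these data known, and the oocyte list was changed after the table was seen (an egg coat name pattern was narrowed and 2 features were added by symbol). Counting intervals are exact (Clopper-Pearson, 95%), and amplified reads are not independent molecules. Each pool of a group came from other males, but the groups may share males, and p-values measure the spread between pools with the groups treated as independent.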

Additional observations from a re-analysis of the deposited data

Results flagged for a closer look

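The Aquaporin-1 feature Saurata001001 had all of its 56 SPZ_EJ counts in pool 4, so that this pool's distance to the next, divided by the range of the group, was 1.0, above Dixon's critical value for 4 libraries. No other aquaporin feature with more than 20 counts in HGC or in SPZ_EJ passed that value there. Chance alone marks about 1 in 20 groups of normally distributed values. That rate does not apply here, since counts in 1 pool only always give a ratio of 1.0.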

How the results depend on the processing

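The calls of Aquaporin FA-CHIP and Aquaporin-7 held under every alternative run, with log2 fold changes of -5.42 to -4.19 and 8.62 to 10.48. Without the expression filter 4 aquaporin features were called higher, against 2 with it: Aquaporin-7, Aquaporin-1 Saurata1B018180 and Saurata001000, and Aquaporin-3 Saurata1B038272, while Aquaporin-3 Saurata1B022758 was no longer called. Without SPZ_EJ replicates 3 and 4, an alternative added after seeing the data, 2 aquaporin features were called lower, against 1, Aquaporin-3 Saurata1B038272 turned to -5.26, and 3 listed partner genes were called lower, against 5. With scaling by library size only 2 partners were called lower. Under that scaling the median over all tested features stood at 1.19 in place of 0.45 log2 units. With the replicate block 2 aquaporin features were called higher and 1 lower, as without it. The labels do not say that equal numbers mark the same males. The deviations of same-numbered pools correlated at 0.0125 to 0.117 across features. Different cells of the same males need not deviate alike, so this correlation cannot decide whether same-numbered pools share males. With the block Aquaporin-3 Saurata1B038272 stood at 0.65 (adjusted p = 0.807, edgeR's quasi-likelihood test). Thinning left 10 aquaporin features with counts in HGC and 15 in SPZ_EJ. Of the 16 aquaporin features, 12 did not pass the filter, so the alternatives that keep it gave them no value.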
